A study of Mus musculus with 15 samples.

Results

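Nrxn2 and Nrxn3 encode neurexins, presynaptic adhesion proteins, and each is transcribed from separate alpha (long) and beta (short) promoters. All H3K4me3 summits of WT amygdala that lay within 1 kb of an annotated transcription start site (TSS) of either gene, or inside the gene body, were collected. These 2 genes, of 21938 protein-coding genes, held 9 of the 24162 summits in the list, 4 at Nrxn2 and 5 at Nrxn3. H3K4me3 ChIP-seq had been performed on amygdala nuclei of adult male mice of the F1 generation 129xB6 strain background, with 20000 nuclei per reaction. The series holds 15 samples of 4 genotypes (WT, Kmt2a-HET, Kdm5c-KO and DM, the double mutant), of which 11 are H3K4me3 libraries and 4 are inputs. Only the WT summits were used here. They come as 1 list for both WT mice, so no value below has a spread between animals and no test between samples was possible.

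Neurexins sit in the presynaptic membrane and bind a large set of partners across the synaptic cleft, among them neuroligins, LRRTMs and cerebellins. Alpha-neurexins carry a long extracellular region of repeated LNS and EGF-like domains, whereas beta-neurexins start from an internal promoter, with a first exon of their own, and keep only the last LNS domain. H3K4me3 is a histone mark concentrated around active transcription start sites, so its summits can show which annotated promoters carry the mark in a tissue.

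A summit is a single position, and its score was read as −log10 of the MACS2 q-value, so a larger score means stronger statistical evidence for enrichment over input and not a larger amount of the mark. Scores in the list ran from 1.18 to 341.7 with a median of 102.3. An alpha start is here the TSS of a protein-coding transcript of 1000 residues or more, a beta start that of a shorter coding transcript that begins downstream and runs to the shared 3′ part, and all remaining TSSs are called other starts. TSSs of a gene within 1 kb of each other were joined into 1 start cluster. A cluster with any alpha TSS is called alpha, also where it holds other TSSs. Positions are on mm10 (GRCm38) with GENCODE M21 annotation.

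As a check of the tissue, promoter summits were found for all 4 neuronal, all 3 astrocyte and all 3 oligodendrocyte marker genes (within 1 kb), where 64.7% of all protein-coding genes had one. The median of their highest promoter scores was 265.9 for neurons, 56.8 for astrocytes and 102.8 for oligodendrocytes. The list thus holds promoters of several cell types, and the cell type in which a neurexin promoter carried the mark cannot be told apart in bulk tissue.

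Nrxn3 is shown first by sequence, because RefSeq promoter windows were at hand for its starts and not for those of Nrxn2. The RefSeq promoter table (GRCm38.p6) matched 3 Nrxn3 starts and each window covers 250 bases before to 50 bases after the start. The windows lie on the plus strand. That of the longest Nrxn3 alpha protein annotated as coding by GENCODE (1571 residues), here the long alpha start, is chr12:88794254-88794553. A shorter alpha transcript has chr12:88953140-88953439 and beta has chr12:89812233-89812532. RefSeq also predicts alpha proteins of up to 1696 residues from starts further upstream. CpG dinucleotides are in capitals.
Nrxn3 long alpha start: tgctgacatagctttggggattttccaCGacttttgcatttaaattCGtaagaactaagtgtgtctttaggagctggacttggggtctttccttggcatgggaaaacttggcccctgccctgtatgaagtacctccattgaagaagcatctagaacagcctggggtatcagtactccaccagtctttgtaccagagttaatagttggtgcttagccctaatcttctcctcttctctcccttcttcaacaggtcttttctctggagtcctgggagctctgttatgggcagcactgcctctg
Nrxn3 short alpha start: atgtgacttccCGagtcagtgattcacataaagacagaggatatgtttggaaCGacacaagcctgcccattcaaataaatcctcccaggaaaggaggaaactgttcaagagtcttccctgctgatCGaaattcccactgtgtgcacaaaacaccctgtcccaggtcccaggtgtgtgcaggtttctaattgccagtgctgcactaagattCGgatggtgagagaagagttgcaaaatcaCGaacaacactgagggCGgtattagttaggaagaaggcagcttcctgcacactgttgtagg
Nrxn3 beta start: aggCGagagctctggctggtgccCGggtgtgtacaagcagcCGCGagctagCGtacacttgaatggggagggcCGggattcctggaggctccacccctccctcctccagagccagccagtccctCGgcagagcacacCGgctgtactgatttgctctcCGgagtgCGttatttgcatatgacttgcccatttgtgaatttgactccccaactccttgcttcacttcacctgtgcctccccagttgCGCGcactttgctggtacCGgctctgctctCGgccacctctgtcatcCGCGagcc

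The long alpha window, which had no summit within 71 kb, held 2 CpG dinucleotides and an observed over expected CpG ratio of 0.119. Its TSS is also the first base of exon 2 in 5 transcripts that begin upstream, so the preceding bases are intron sequence of those transcripts. RefSeq mRNA models with the same start codon begin at 88722701, near the first annotated start. The short alpha window, whose summit scored 46.0, held 6 CpG with a ratio of 0.353, and the beta window, whose summit scored 148.0, held 16 CpG with a ratio of 0.588. CpG content and score had the same order at these 3 starts, but the order did not extend to the first annotated start, which had the highest score (163.4) and ratios of 0.252 to 0.302 at its 4 TSSs. Among 32851 RefSeq windows the ratios lay above 16.2%, 47.3% and 63.4% of windows, and the median window held 7 CpG. The GC content was 47.3%, 47.7% and 60.7%. The letters GGGCGG (a GC box, read on either strand) occurred 1 time in the short alpha window and are found in 35.7% of all windows. The letters TATAAA, TGACGTCA and CACGTG, found in 13.6%, 1.79% and 7.15% of all windows on either strand, were not in these 3 windows.

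Nrxn2 (ENSMUSG00000033768; chr19:6418731-6544169, plus strand) spans 125439 bp and has 18 annotated transcripts with 15 distinct TSSs in 8 clusters, of which 2 are alpha, 1 is beta and 5 are other. Its WT summits formed a pair of strong and a pair of weak ones. The strong pair, with scores of 219.0 and 201.7, lay just inside the alpha and the beta transcription unit. The weak pair, with scores of 7.67 and 11.4, lay in the intron after the exon with the alpha start codon and near the 3′ end. Strong and weak refer here to the score.

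**Figure D1:**
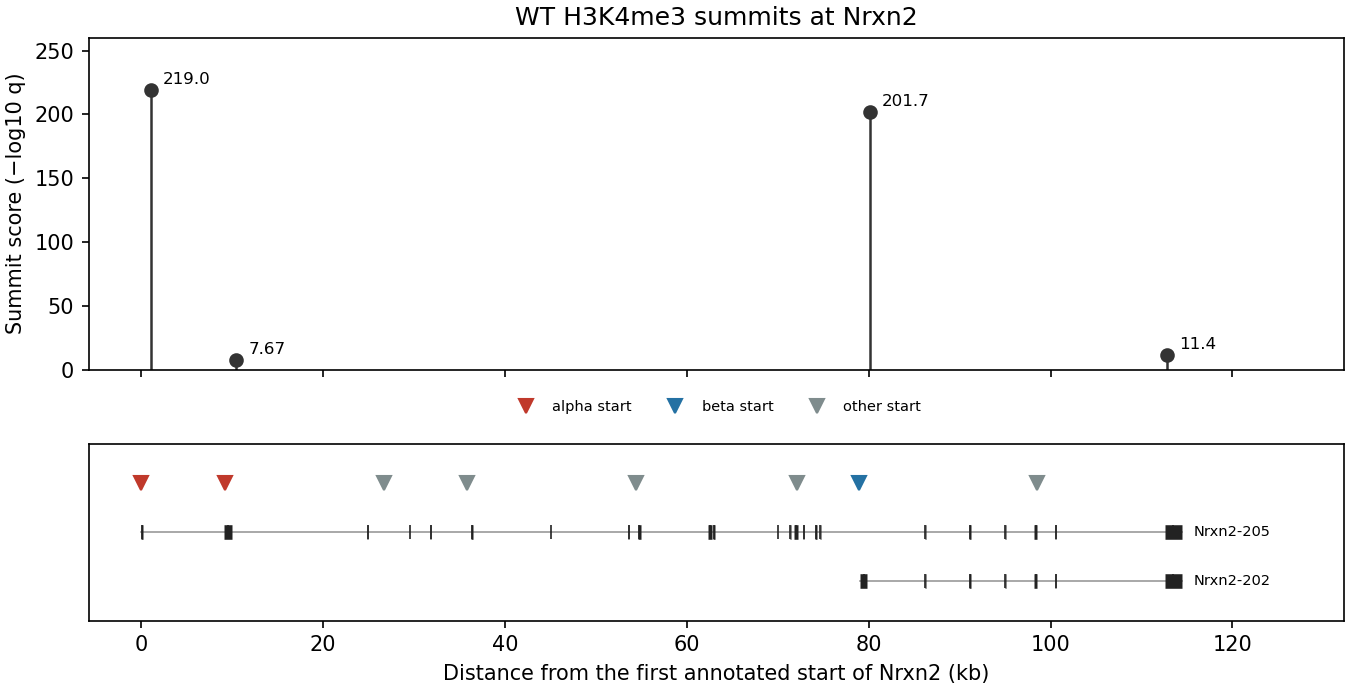
H3K4me3 summits of the pooled WT list at Nrxn2. The upper panel gives the score of each of the 4 summits (−log10 q) against its distance in kb from the first annotated start, and the lower panel shows the start clusters as triangles (red, alpha; blue, beta; gray, other) above the exons of the alpha transcript Nrxn2-205 and the beta transcript Nrxn2-202. The summits of 219.0 and 201.7 stand next to the first alpha and the beta start, and the remaining ones reach 7.67 and 11.4.

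The highest-scoring Nrxn2 summit, at 6419782, scored 219.0 and exceeded 82.1% of the list. It lay 1017 bp downstream of the nearest alpha TSS (6418765), in intron 1 of the 4 alpha transcripts and of the retained-intron transcript Nrxn2-207 that start there. The first exons of these transcripts are short, 208 to 242 bp, and noncoding, since the alpha start codon (6428049) lies in exon 2. The summit was therefore on the promoter side of the start codon, 8267 bp before it. RefSeq gives a single Nrxn2 TSS, at 6418756, with 4 models of 1503 to 1710 residues, and the summit was 1026 bp downstream of that one. A noncoding transcript on the opposite strand, Gm14965, starts at 6418606, which is 125 bp upstream of the first Nrxn2 TSS. H3K4me3 carries no strand, so the share of either transcript in the mark cannot be told apart.

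The beta summit of Nrxn2, at 6498839, scored 201.7 and exceeded 75.1% of the list. It lay 1004 bp downstream of the beta TSS at 6497835 and 560 bp downstream of the beta start codon (6498279). The position is in intron 1 of the beta transcripts Nrxn2-202 (660 residues) and Nrxn2-203 (353 residues), and in intron 15, 16 or 17 of the alpha transcripts. The scores of the first alpha and the beta summit differed by 17.4, and the summits were 79057 bp apart. Whether the alpha and beta scores of Nrxn2 differ between animals could not be tested in 1 pooled list.

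The summit at 6429146 scored 7.67, above 14.8% of the list, and lay 500 bp downstream of a TSS at 6428646. The start cluster here, from 6427923 to 6428646, includes the transcript with the longest Nrxn2 protein, Nrxn2-208 with 1710 residues. All 3 TSSs of this cluster lie within exon 2 (6427805 to 6428778) of the 5 transcripts that begin at the first alpha start. The summit itself was in the following intron, 1097 bp after the start codon. Of the starts in both genes, the one at 6428646 had the most CpG, 46 in the 300 bases from 250 before to 50 after it, with a ratio of 1.14 that exceeded 98.6% of 93462 TSSs of protein-coding genes. The Nrxn2 start with the richest CpG content was thus next to the summit with the lowest Nrxn2 score. However, this TSS is that of Nrxn2-209, with 216 residues and no annotated start codon, and of the processed transcript Nrxn2-214. Its window lies within exon 2, so the CpG content is that of exon sequence of the longer transcripts.

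The summit at 6531510 scored 11.4, above 21.4% of the list, and was 14305 bp from the nearest Nrxn2 TSS. It lay in the coding part of the last exon of alpha transcripts Nrxn2-205 (exon 23 of 23), Nrxn2-208 and Nrxn2-204 and of beta transcript Nrxn2-202 (exon 7 of 7). It was in an intron of Nrxn2-201, Nrxn2-203, Nrxn2-213, Nrxn2-216 and Nrxn2-218, and the remaining transcripts end before it. The nearest TSS of any gene, at 6531788, belongs to Gm14964, an antisense transcript within Nrxn2, and this TSS is 278 bp away. Since Gm14964 runs on the minus strand, the summit lay inside it, downstream of its start. With a GC content of 68.5%, above 92.0% of the list, and 42 CpG in 501 bases, this summit had the highest CpG content of the 9. Its assignment to Nrxn2 or to Gm14964 cannot be told apart from the position.

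The remaining 5 Nrxn2 start clusters, all of noncoding or retained-intron transcripts, were 8012 to 25730 bp from the nearest summit. The clusters at 6490827 and 6517205 fall within later exons that alpha transcripts share, so that 3 of the 8 Nrxn2 clusters, together with the one around the start codon, lie inside exons of longer transcripts. The nearest summits outside the gene were 18553 bp before its first TSS, at the start of Rasgrp2 (score 107.7), and 287130 bp past its annotated end (score 38.9).

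The position of the Nrxn2 summits decides how its promoters are counted. Within 1 kb of a TSS, only 1 of the 8 clusters was marked, the alpha cluster around the start codon with its score of 7.67. It was marked only through the TSS at 6428646, whose transcripts, Nrxn2-209 and Nrxn2-214, are not alpha. Its alpha TSSs, at 6427923 and 6427937, had no summit within the 1 kb window. The summits of 219.0 and 201.7 missed this window by 17 bp and 4 bp. With a window of 3 kb, 3 of 8 clusters were marked, including the first alpha and the beta start. Both neurexins were among the 64.7% of all 21938 protein-coding genes that had at least 1 summit in the 1 kb window. Nrxn2 belonged to the 6.79% of 14830 genes with a summit whose highest summit lay over 1 kb from every TSS of their own. The Nrxn3 beta summit was placed likewise, 965 bp downstream of its TSS. Across the list, of 12078 summits at or above the median score, 332 (2.75%) lay 900 to 3000 bp downstream of the nearest TSS of any gene, limits that were chosen after the neurexin values were seen. Of the 4 neurexin summits above the median, 3 had this placement, but the limits were set with these 3 known. The share of 2.75% is therefore no test of them.

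Nrxn3 (ENSMUSG00000066392; chr12:88722876-90334935, plus strand) spans 1612060 bp, and only 10 protein-coding genes are longer. It has 13 transcripts with 12 distinct TSSs in 6 clusters, 3 alpha, 1 beta and 2 other. Its 5 summits were spread over the first part of the gene, and the 2 strongest, with scores of 163.4 and 148.0, marked the first annotated start and the beta start. Summits of 46.0 and 24.8 lay between these, and 1 of 2.84 lay upstream of the beta start.

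**Figure D2:**
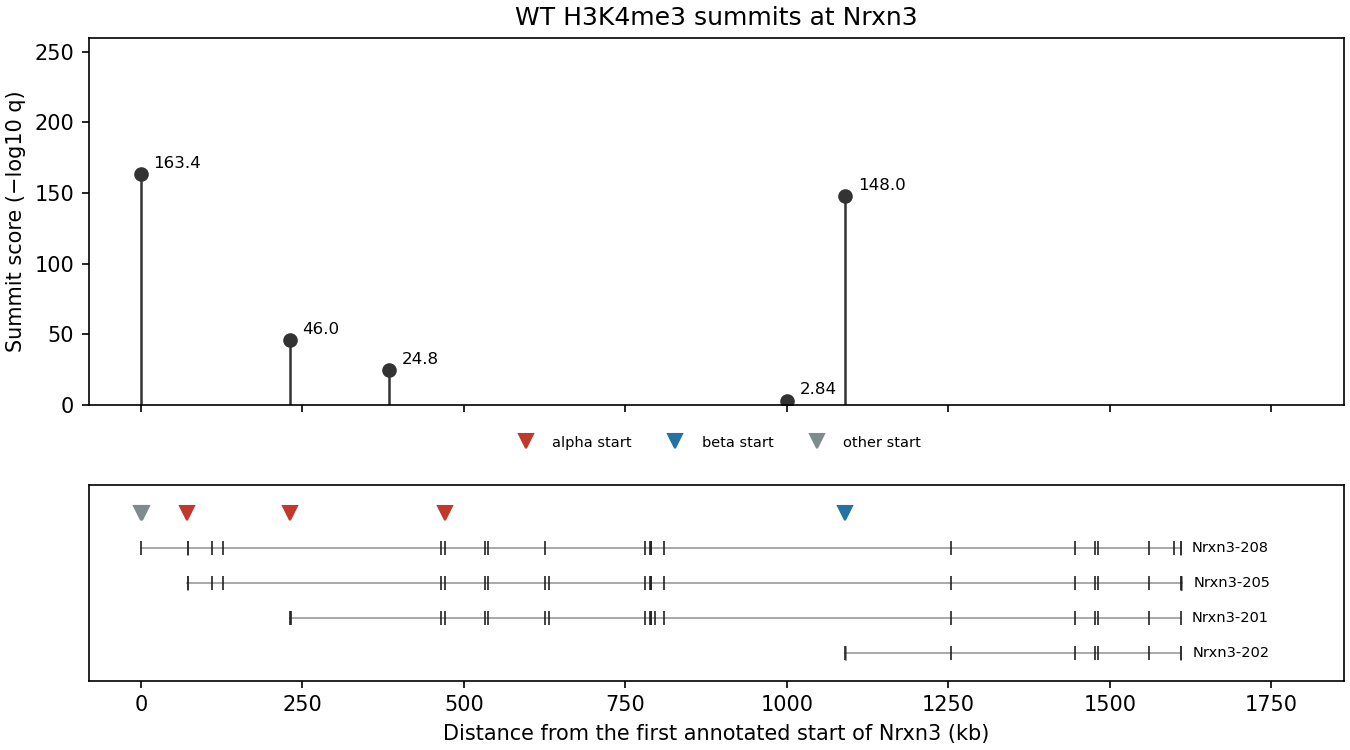
H3K4me3 summits of the pooled WT list at Nrxn3. The axes and colors are as in the map of Nrxn2, and the exons of 4 transcripts are drawn (Nrxn3-208, which starts at the first annotated start; alpha transcripts Nrxn3-205 and Nrxn3-201; beta transcript Nrxn3-202), each exon with a tick of fixed width. The summits of 163.4 and 148.0 stand at the first start and at the beta start, and no summit stands at the start of Nrxn3-205 or at the last alpha start.

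The summit at 88723090 scored 163.4, above 62.5% of the list, and lay 19 bp upstream of a TSS at 88723109. The cluster there (88722876 to 88723109) has 4 GENCODE transcripts, none annotated as protein coding: 2 retain an intron and 2 are candidates for nonsense-mediated decay. By the rule used here it is therefore an other start. RefSeq, in contrast, places 32 models at a TSS 389 bp upstream of the summit, at 88722701, and 27 of them are predicted mRNAs of 1425 to 1696 residues. Their start codon (88795185) is the one that Nrxn3-205 and Nrxn3-208 use, 72095 bp downstream of the summit. The highest-scoring Nrxn3 summit was thus at a start from which RefSeq predicts alpha proteins and GENCODE annotates none as coding.

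The start of the longest GENCODE alpha protein of Nrxn3, at 88794504 (Nrxn3-205, 1571 residues), had no summit nearby, the nearest being the one 71414 bp upstream. This TSS is at the same base as the first base of exon 2 in 5 transcripts that begin further upstream, and exon 2 of Nrxn3-208, Nrxn3-204 and Nrxn3-209 also ends where the first exon of Nrxn3-205 ends, at 88795893. In the sequence printed above for the long alpha start, the 251st base is this TSS. The other unmarked alpha start, at 89193106 (Nrxn3-210, 1100 residues), coincides with its own start codon and lies within an exon (89193046 to 89193207) of 5 longer transcripts. Its nearest summit was 86645 bp upstream. Both unmarked alpha starts of Nrxn3 therefore lie inside exons of transcripts that begin elsewhere, whereas the 4 clusters whose first exons are their own each had a summit within 3 kb (for the cluster at 88725009 that of the first start, 1919 bp upstream). Nrxn2 did not share this pattern. Its nested cluster around the start codon was marked, and 3 clusters with first exons of their own had no summit within 3 kb.

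The summit at 88953620 scored 46.0, above 38.6% of the list, and lay 221 bp downstream of the alpha TSS at 88953399. Nrxn3-201, which starts there, encodes 1100 residues from a start codon at 89193106, and the summit is in its intron 1. RefSeq has an additional predicted start 5 bp downstream of the summit. The window of 501 bases centered on this summit held only 6 CpG with a ratio of 0.225, which exceeded only 7.09% of the list. Here the mark was at an alpha start of low CpG content, with a score below the list median.

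The summit at 89106461 scored 24.8, above 31.0% of the list. It was far from any start, 86645 bp from the nearest GENCODE TSS and 152836 bp from the nearest RefSeq TSS. It lay in intron 2 of Nrxn3-201 and intron 3 of Nrxn3-205. Its sequence is shown because no start is annotated near it, as the 300 bases of chr12:89106311-89106610 (GRCm38.p6, plus strand) around the summit, with CpG in capitals.
Nrxn3 intron summit: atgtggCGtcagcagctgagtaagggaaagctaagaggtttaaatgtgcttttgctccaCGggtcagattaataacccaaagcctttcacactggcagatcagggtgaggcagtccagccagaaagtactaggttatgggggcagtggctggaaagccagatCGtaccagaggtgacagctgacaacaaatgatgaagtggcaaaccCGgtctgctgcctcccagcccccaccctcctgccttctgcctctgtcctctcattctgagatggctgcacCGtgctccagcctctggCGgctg

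This intronic stretch held 6 CpG with a ratio of 0.264 and a GC content of 55.0%. Its CpG content was near that of the short alpha window printed above and below that of the beta window. No value here shows whether it is a start, since TSS mapping was not analysed here.

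The weakest summit of the 9, at 89722902, scored 2.84, above only 1.38% of the list. It lay in intron 14 of Nrxn3-205 and Nrxn3-201, 89581 bp upstream of the beta TSS. A RefSeq start at 89726136, with 5 predicted models of 427 to 665 residues that use the beta start codon, lay 3234 bp downstream of it. This summit was thus outside the promoter window of that RefSeq start also.

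The beta summit of Nrxn3, at 89813448, scored 148.0, above 59.1% of the list. It lay 965 bp downstream of the beta TSS (89812483) and 48 bp downstream of the beta start codon (89813400), in the coding part of beta exon 1. In the alpha transcripts the position is in intron 14 (Nrxn3-201 and Nrxn3-205) or intron 11 (Nrxn3-210). The transcripts from this start, Nrxn3-202 and Nrxn3-203, encode 567 and 430 residues. The beta start is 1089607 bp from the first annotated start of the gene, and the scores of the 2 summits differed by 15.4. The beta score was the lower one of the strong pair at both genes, but the first Nrxn3 start is an other start by the rule used here. Compared with the marked Nrxn3 alpha start, which scored 46.0, the beta score was the higher one. No difference between these scores has a replicate spread to be set against.

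Within 1 kb, 3 of 6 Nrxn3 clusters were marked, and with a window of 3 kb 4 were. Nrxn3 was among the 4.64% of protein-coding genes with 2 or more marked promoters at least 10 kb apart, and Nrxn2 was not. This contrast rested on the 17 bp and 4 bp by which the Nrxn2 summits missed the window, and with 3 kb both genes had such promoters. Both neurexins were among the 5.68% of protein-coding genes with 2 or more summits at or above the median score, and among the 2.96% with 4 or more summits of any score. These shares do not take gene length into account. Of 1015 genes of 100 to 150 kb, a class chosen after the values were seen to hold Nrxn2, 89 (8.77%) had 4 or more summits. Of the 59 genes of at least 1 Mb, 25 (42.4%) had 5 or more, with a median of 3. Set against genes of its length, the 5 summits of Nrxn3 were not unusual. Per 100 kb of gene Nrxn3 had 0.310 summits against 3.19 at Nrxn2.

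**Figure D3:**
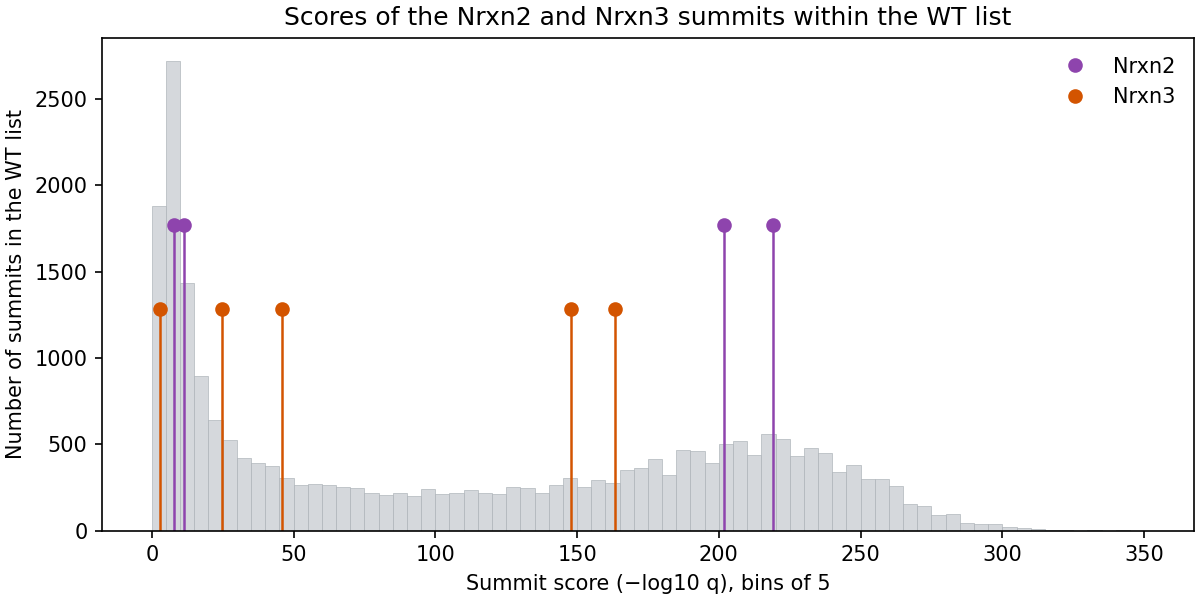
Scores of the 9 neurexin summits within the pooled WT list. Gray bars count all summits in score bins of 5 (−log10 q), and vertical lines with points mark the summits of Nrxn2 (purple) and Nrxn3 (orange), whose heights carry no value. The list has many low scores and a broad hump above 150, with the Nrxn2 pair of 201.7 and 219.0 in the hump and 3 Nrxn3 summits below 50.

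The strong neurexin summits lay in sequence of below-median CpG ratio, and only the first Nrxn2 alpha summit was near the low end of the list. In 501 bases centered on the summit, the ratio of observed over expected CpG was 0.177 at the first Nrxn2 alpha summit, lower than all but 4.25% of the list. At the Nrxn2 beta summit it was 0.422, above 25.3% of the list. At the first Nrxn3 summit it was 0.393 (above 22.1%) and at the Nrxn3 beta summit 0.517 (above 37.1%). All 4 values were below the list median of 0.610, and below the medians of the summits that score like them, 0.710 for scores of 102.3 to 201.2 and 0.706 for scores above that. The starts themselves gave another picture at Nrxn2. In the windows from 250 bases before to 50 after the TSS, the ratio was 0.686 to 0.708 at the 3 TSSs of the first alpha cluster and 0.735 to 0.767 at those of the beta cluster, against a median of 0.455 over 93462 TSSs of protein-coding genes. So the Nrxn2 summits were about 1 kb downstream of the CpG-rich start, in intron sequence of lower CpG content. At the first Nrxn3 start, where the summit was next to the TSS, the ratio at the 4 TSSs was 0.252 to 0.302 and thus below that median.

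**Figure D4:**
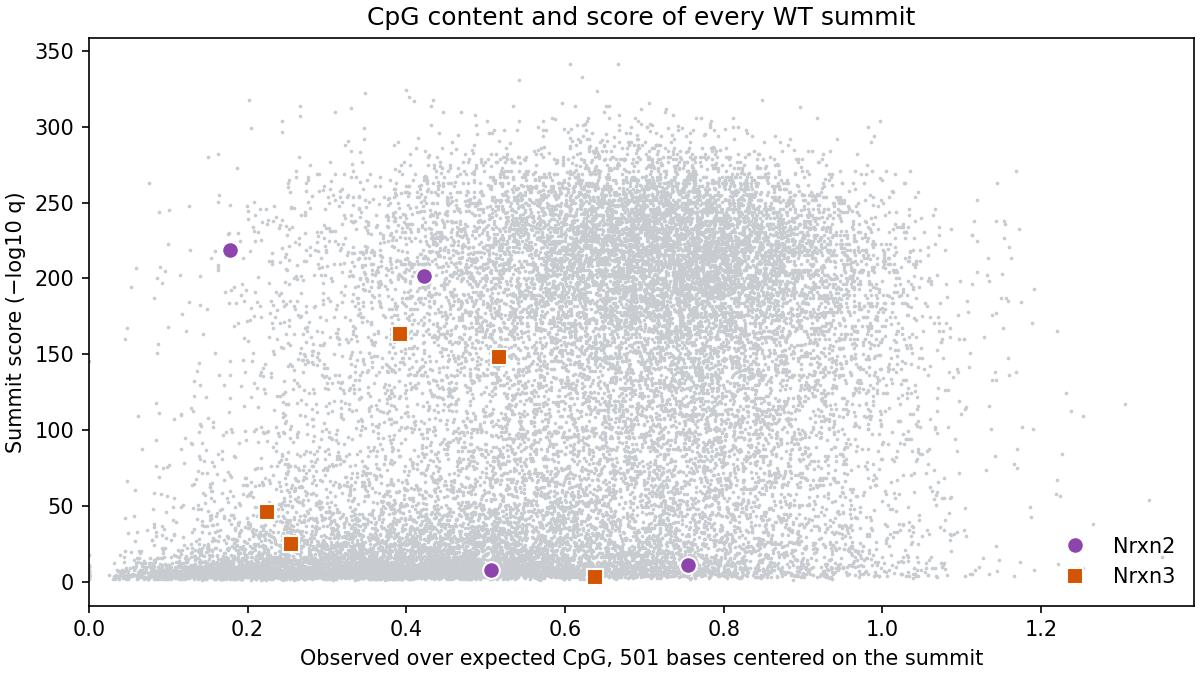
CpG content and score of every WT summit. The horizontal axis is the ratio of observed over expected CpG in 501 bases centered on the summit, the vertical axis is the score (−log10 q), gray dots are all summits and large markers are those of Nrxn2 (circles) and Nrxn3 (squares). The strong neurexin summits lie at ratios of 0.177 to 0.517, below the medians of 0.710 and 0.706 of summits that score like them, and the Nrxn2 summit near its 3′ end lies at 0.755 with a score of 11.4.

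Binding partners and regulators of neurexins were then placed in the same list. Of 31 partner genes, 29 (93.5%) carried a promoter summit (1 kb window), against 64.7% of all protein-coding genes, and 24 of the 29 (82.8%) scored at or above the list median, near the 80.4% of all marked protein-coding genes. The median of their highest promoter scores was 190.9, against 194.6 over all marked protein-coding genes. Cbln3, a secreted cerebellin, and Lrrtm3, a leucine-rich repeat protein of the postsynaptic membrane, had none within 1 kb. The nearest summits were 1106 bp (Cbln3) and 1997 bp (Lrrtm3) from a TSS, and with a window of 3 kb all 31 genes had one. With a window of 500 bp only 20 of the 31 had one, so the share depends on the window.

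Surface receptors with a promoter summit scored above the list median, except for Adgrl1. The neuroligins, which bind neurexins across the cleft, ranged from 190.9 (Nlgn3) to 263.0 (Nlgn1), and the marked LRRTMs ranged from 220.9 (Lrrtm4) to 227.5 (Lrrtm1). The delta receptor gene Grid1, whose product binds cerebellins rather than neurexins themselves, scored 222.8. Latrophilins, adhesion G protein-coupled receptors, ranged from 94.1 (Adgrl1) to 260.2 (Adgrl3). Dystroglycan (Dag1) scored 167.0 and calsyntenin Clstn3 scored 260.3.

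The secreted partners with a promoter summit ranged from 27.2 to 141.0. The cerebellins, bridging proteins between neurexins and delta receptors, ranged from 102.8 (Cbln1) to 137.3 (Cbln4). The C1q-like proteins scored 52.7 (C1ql2) and 137.6 (C1ql3). The neurexophilins, glycoproteins that bind alpha-neurexins, had the lowest median, 58.5, from 27.2 (Nxph4) to 141.0 (Nxph1). All 9 marked secreted partners thus scored below both strong Nrxn2 summits, but those summits lay outside the 1 kb window used for the partners. Within that window the highest Nrxn2 score was 7.67, below all 9, and the highest Nrxn3 score was 163.4, above all 9.

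Cytoplasmic partners, which bind the neurexin tail directly or through CASK, ranged from 165.2 (Lin7b) to 261.6 (Lin7a). The KH-domain splicing regulators, which control an alternatively spliced segment of neurexin transcripts, ranged from 221.8 (Khdrbs2) to 248.1 (Khdrbs3). Of the 31 partners, 2 (Nlgn1 and Adgrl3) had 2 marked promoters at least 10 kb apart, and the remaining 29 did not. Over all protein-coding genes the share was 4.64%, so 2 of 31 is near the background. Gene length was not taken into account.

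**Figure D5:**
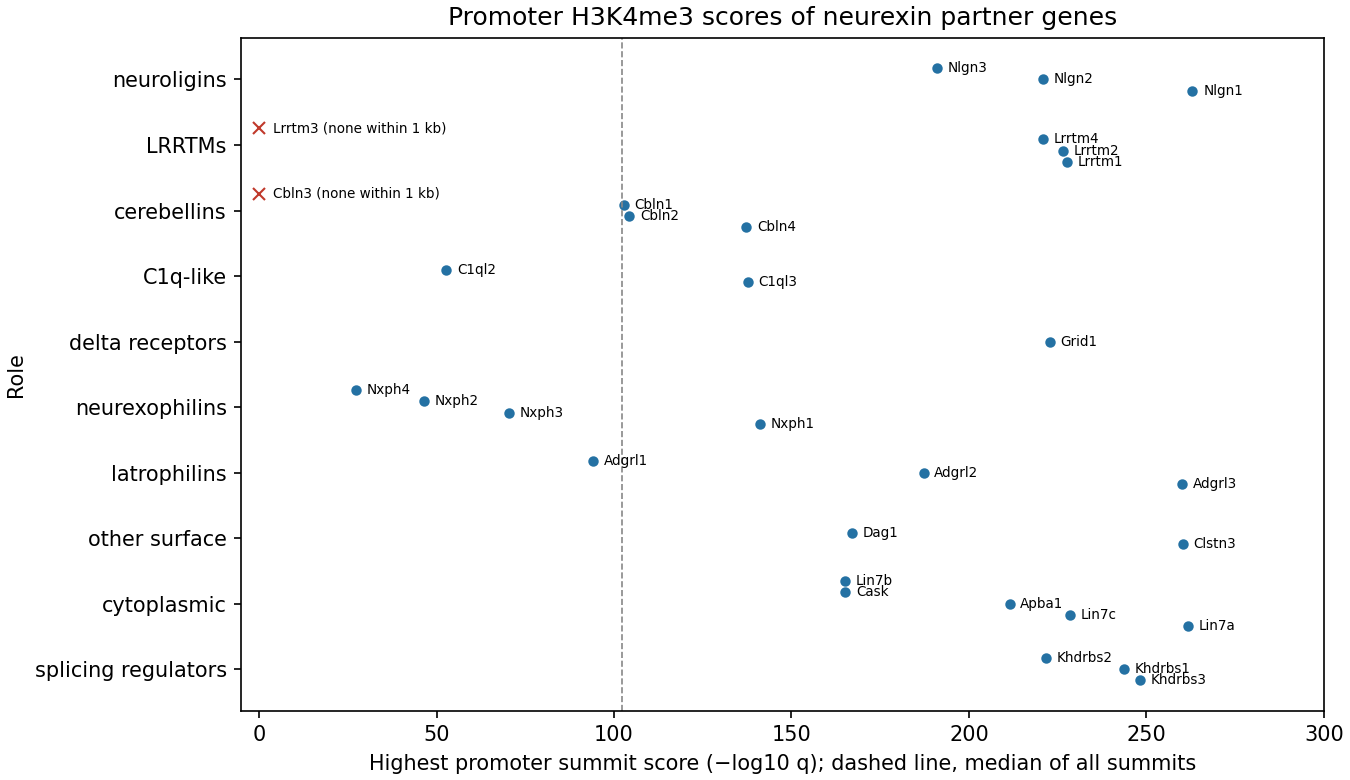
Highest promoter summit score of the 31 neurexin partner genes, by role. Points are genes of the pooled WT list, the horizontal axis is the score (−log10 q), crosses at 0 mark the 2 genes without a summit within 1 kb, and the dashed line is the median of all summits, 102.3. Neurexophilins lie lowest, with a median of 58.5, and splicing regulators lie between 221.8 and 248.1.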

How the data were processed

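Nuclei of mouse amygdala had been digested with micrococcal nuclease and H3K4me3 nucleosomes precipitated. Reads had been mapped by the authors with Bowtie to mm10 (up to 2 mismatches, uniquely mapped) and called WT peaks against input with MACS2 version 2.1.0.20140616 at a q-value threshold of 0.1. The deposited WT list gives 1-bp summits with a score, taken to be the −log10 q-value. The file does not name this scale, and the depth behind a score is not given by it. Peak widths, spike-in normalization, the mutants' lists and expression values were not used here.

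Summits of autosomes (1 to 19), X and Y were placed on GENCODE M21 transcripts and, in addition, RefSeq GRCm38.p6 models, the same build, with Python 3.11.15, numpy 2.4.6 and pysam 0.24.0. Promoter windows reached 1 kb upstream and downstream of each TSS, the definition in the study's methods. Percentiles are shares of the list with a lower score or ratio. The matching of summits to promoter windows, the call of separated promoters and the joining of summits were tested on simulated data. The counts of summits per gene, the start classes and the placement in exons and introns were not. The text names both genes, all their summits and the nearest genes, partner genes without a promoter summit, and the highest and lowest of each role. A further gene of the partner list is not reported here and was left out of its counts. Members and lists were chosen with earlier results of these data known. Alternatives covered the score threshold, window, joining, TSS set and spacing.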

Additional observations from a re-analysis of the deposited data

How the results depend on the processing

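The 2 WT mice share 1 list, so no replicate could be left out and nothing here measures the spread between animals. No paired analysis was possible because the values come from a single pooled list. Keeping only summits at or above the median score left 2 summits at Nrxn2, 2 at Nrxn3 and 0 marked Nrxn2 clusters. No alpha start of either gene then had a score within 1 kb. The retained summits included that of 219.0, 17 bp outside this window of the first Nrxn2 alpha start. Also retained was that of 163.4, at an other start of Nrxn3 from which RefSeq predicts alpha proteins. A window of 3 kb gave 3 marked Nrxn2 clusters and raised the highest score at the Nrxn2 alpha clusters from 7.67 to 219.0. The value of 7.67 came through a TSS at 6428646 whose own transcripts are not alpha. The Nrxn2 beta start had no score within 1 kb and 201.7 within 3 kb, and the Nrxn3 beta start had none within 500 bp. The share of protein-coding genes with separated marked promoters, 4.64%, was 1.92% for summits at or above the median score, 3.52% with a window of 500 bp, 5.50% with 3 kb, 3.32% for TSSs of coding transcripts, and 5.62% or 3.62% with promoters at least 5 kb or 20 kb apart. In the remaining 39 recomputed values, counts stayed within 1.5 times, the share within its interval, and scores did not change. These include RefSeq TSSs added, an alternative chosen after seeing the data. They also include the number of partner genes with a promoter summit, which fell from 29 to 20 with a window of 500 bp. A high score needs depth as well as enrichment, and the summits scoring 2.84 and 7.67 are those the list supports least.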
